A study of Mus musculus with 6 samples.

Results

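The transcripts of the normal adult mouse testis were ranked from the arrays of the 2 wild-type (WT) mice of a study of H3f3b, a gene that encodes the histone variant H3.3. Its 6 mice (2 WT, 2 heterozygous and 2 homozygous for a constitutive H3f3b deletion made with a Cre expressed in oocytes from the Zp3 promoter) came from 2 litters, with each genotype once per litter. The mice were C57BL6J, the testes were taken at 8 weeks, and RNA of 1 whole testis per mouse was hybridised to Illumina bead arrays. This age is stated by the source names and the design text, although another field of the labels gives E12.5, an embryonic stage. Only the WT mice of litter 1 and litter 2 were used here, no genotypes were compared, and whether these mice carry the Cre transgene is not given in the sources used here. Probes with a detection p-value below 0.05 in both WT mice were kept, which left 18486 of 45281 probes (40.8%) and, by name, 13224 of 29523 genes (44.8%).

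In the adult testis, spermatogonia divide by mitosis at the base of the seminiferous tubule, spermatocytes pass through meiosis, and the haploid spermatids reshape into sperm. During this reshaping histones give way to transition proteins and then protamines, a tail with dense fibres and a fibrous sheath forms, and an acrosome caps the nucleus. Sertoli cells support the germ cells inside the tubule, Leydig cells between the tubules make testosterone, and peritubular muscle-like cells, vessels and macrophages fill the wall and the interstitium. Many transcripts of late spermatogenesis are made by testis-specific copies of widely used genes, and many are stored for delayed translation.

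The spermatid markers Prm1, Tnp1 and Tnp2 were all detected. Prm1, which encodes protamine 1, had deposited signals of 45449 and 45477 in the 2 mice and shared rank 2 of 13224 genes. Tnp1, which encodes transition protein 1, had signals of 22337 and 22407 and ranked 28. Tnp2, which encodes transition protein 2, had signals of 2241 and 2008 and ranked 1257, at the 90.5th percentile of detected genes. For Prm1 and Tnp1 the 2 mice lay close together, and all 3 markers stood within the brightest 10% of the detected genes. The percentile used throughout is the share of detected genes at or below a gene's level, so that 100 is the highest. A level is the mean over 2 mice of the background-corrected, quantile-normalized log2 signal, read from the brightest detected probe of a gene and given with its SD.

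A bead array measures how much labelled cRNA binds a probe, which depends on the probe as well as on the transcript. The ranks below are therefore ranks of signal and not of copies per cell. Of 6383 detected genes with several probes on the array, 4039 (63.3%) had at least 1 probe that was not detected, so a gene whose single probe was not detected cannot be called silent. Of the names with 1 probe 34.0% were detected, against 61.5% of those with 2, 73.5% of those with 3 and 80.2% of those with 4 or more. In whole-organ RNA, fewer cells of a type and less RNA per cell cannot be told apart. The labels tell the 2 mice apart only by litter and mouse number, so the spread between them joins animal, litter and array.

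By array, 19809 probes were detected in the litter 2 mouse and 20188 in the litter 1 mouse, 3025 probes (6.68%) on 1 array only and 23770 (52.5%) on neither. The median signal of the detected probes was 199.7 and 200.7 in the 2 mice, and that of the probes detected on neither was 89.7 and 95.6. The highest signal was 50407 and 54505. The median detected probe thus stood nearer to the background than to the few brightest. Just inside the threshold stood a probe for Slc19a1, a folate transporter, with signals of 99.1 and 114.9 and p-values of 0.04915 and 0.00748. The probes for Khnyn, for Map2, a protein of neuronal microtubules, and for LOC239618 also had a higher p-value of 0.04915 and no signal above 106.0. Just outside it, with a higher p-value of 0.05021, stood probes for LOC381684, Magi3, D930031I08Rik and Ttc19, with signals between 99.1 and 113.1. The signals on the 2 sides of the threshold overlapped.

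The level scale of the detected genes ran between 4.68 and 15.68 on the log2 scale, with a median of 7.22, a 10th percentile of 5.07 and a 90th percentile of 10.90. The 100 brightest of the 45281 probes held 16.1% and 16.8% of the summed signal above background in the 2 mice.

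The brightest signals belonged to ubiquitin, to the sperm form of lactate dehydrogenase, to protamine 1, to mitochondrially encoded RNAs and to ribosomal proteins. Ubb, a polyubiquitin gene, ranked first with 50407 and 54505. Ldhc, the lactate dehydrogenase of spermatocytes and sperm, had 44934 and 48657 and the same level as Prm1 (15.49 ± 0.04 for each, SD, n = 2). Ubb was the brightest in both mice, whereas Ldhc and Prm1 exchanged ranks 2 and 3 between them. The pseudogene Ubb-ps ranked 5 with 42603 and 40437. Probe sequences are not in the files, so the signals of Ubb and of its pseudogene cannot be told apart.

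Other genes of the first 25 known from germ cells or sperm were Fabp9, Gsg1, Odf1, Gpx4, Ggnbp1 and Rsph1. Fabp9, a fatty acid-binding protein of the spermatid head, had signals of 34840 and 34164 and ranked 9. Gsg1, a germ cell-specific membrane protein, had 31187 and 33120 and ranked 12. Odf1, a protein of the outer dense fibres of the tail, had 26957 and 30619 and ranked 14. These 3 germ cell transcripts were interleaved in the ranking with ribosomal protein genes. Gpx4, a glutathione peroxidase that becomes part of the sperm midpiece, ranked 20 with 25252 and 25881. Ggnbp1, a partner of gametogenetin, ranked 24 with 24197 and 23157, and Rsph1, a radial spoke protein of motile axonemes, ranked 25 with 23243 and 23711.

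Housekeeping transcripts filled most of the other places. Rpl41 ranked 8, Rpl23 11, Rps20 15 and Rps29 22. Ybx1, a Y-box protein that binds mRNA, ranked 19 with 27672 and 26791. Probes deposited as mtDNA_COXIII, mtDNA_ND4, mt-Cytb, mtDNA_CytB and mtDNA_ATP6, all of the mitochondrial genome, ranked 6, 17, 18, 21 and 23. The names mt-Cytb and mtDNA_CytB stand for the same gene, read by 1 probe each. Also among the first 25 were LOC218963 (rank 4), a clone now named Pgp after a phosphatase (rank 7, deposited as 1700012G19Rik), 1810037J08Rik (rank 10) and 0610040O15Rik (rank 13).

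**Figure D1:**
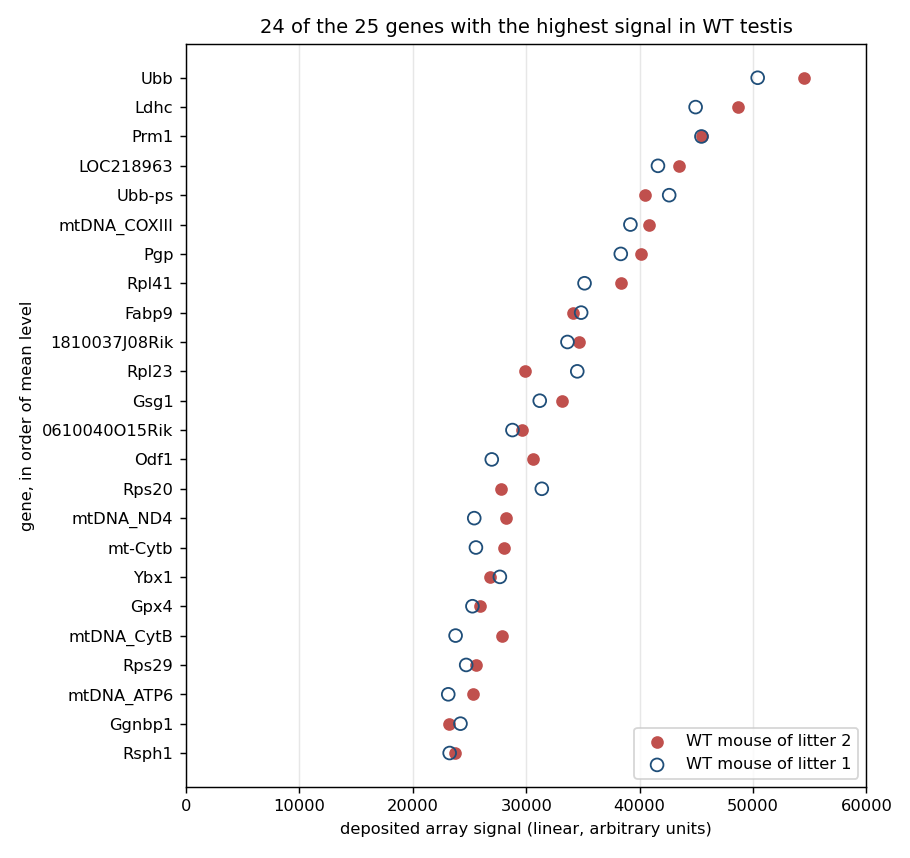
Deposited array signal (linear, arbitrary units, horizontal axis) of 24 of the 25 genes with the highest mean level in WT testis, with a filled point for the litter 2 mouse and an open point for the litter 1 mouse. Ubb lies at 54505 and 50407, and the order of neighbours often differs between the mice: Rps20 ranked 19 in the litter 2 mouse and 12 in the litter 1 mouse.

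Neighbours in this order were often closer to each other than the 2 mice were. Rps20 had a level of 14.80 ± 0.16, which spans the mean of Odf1 (14.83). Odf1 ranked 12 in the litter 2 mouse and 17 in the litter 1 mouse. The composition of the top was steadier than its order, since 90 genes were among the 100 brightest in both mice. Quantile normalization gives equal values to probes of equal rank, so an SD of 0, as for Ubb, says only that the rank was the same.

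Among the 100 brightest genes, 12 encoded ribosomal proteins, although such genes made up 77 of all 13224 detected names (0.582%). Genes of the mitochondrial genome held 7 places, of 16 detected names. A further 70 were other protein-coding genes, 1 was a pseudogene and 10 had no RefSeq symbol or another type. As deposited, 20 of the 100 carried the name of a RIKEN cDNA clone, and 14 of these had a prefix of the clone libraries made from adult testis (1700 and others). Over the whole array 1410 of 2094 probes with such a testis prefix were detected (67.3%), against 3319 of 9450 probes with another RIKEN prefix (35.1%). The 1700 prefix stood highest, with 555 of 729 probes detected (76.1%) and 187 among the brightest 10% of detected probes. The largest group of testis prefixes had 763 of 1203 probes detected (63.4%), with only 89 of the 763 in the brightest 10%. The smallest such group had 23 of 92 detected probes there, and the other RIKEN prefixes 168 of 3319. Median percentiles among detected probes were 80.7 for the 1700 prefix, 57.1 for the largest group, 69.3 for the smallest and 42.7 for the other prefixes. Clones first found in testis libraries were thus detected more often than clones of other libraries, as far as a description of 1 set of probes can show.

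Genes of sperm chromatin packaging stood near the top. Of 9 on the array, 7 were detected, 6 of them in the brightest 10%, with a median percentile of 94.8. Over all named genes with a RefSeq symbol 55.5% were detected, and by construction 10% of detected genes lie in the brightest 10%. After Prm1 and Tnp1 came Hils1 (now H1f9), a linker histone-like protein of spermatids, with 13986 and 14528 and rank 82. H1f7, the linker histone of elongating spermatids, had 4065 and 3713 (94.8th percentile), and Prm3, a protamine-like gene beside the protamine genes, had 3509 and 3894 (94.5th percentile). The exception was H1f6, the testis linker histone of spermatocytes, at 104.1 and 106.5, near the detection limit (2.43rd percentile). H2ac1 and H2bc1, the testis variants of H2A and H2B, were not detected with 1 probe each. Prm2, the gene of the second protamine, was not among the names read here.

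Several of these genes hold, just before their transcription start, an 8-base element of the kind bound by CREM, the cyclic AMP response factor that is known to drive spermatid genes. The 100 bases before the RefSeq start (assembly GRCm38.p6) are shown for bright members of the packaging, acrosome and flagellum lists with a match there. Tnp2, the marker without a match in this window, is shown as well. Smcp, a flagellum gene brighter than Akap4, has a match in the longer windows described below and is not shown. The genes shown were chosen after the sequences had been searched. Capitals mark TGANGTCA read on either strand, where N is any base.
Prm1, chr16:10796824-10796923, minus strand: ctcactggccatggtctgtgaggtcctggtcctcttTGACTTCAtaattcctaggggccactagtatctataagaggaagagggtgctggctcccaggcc
Tnp1, chr1:73015900-73015999, minus strand: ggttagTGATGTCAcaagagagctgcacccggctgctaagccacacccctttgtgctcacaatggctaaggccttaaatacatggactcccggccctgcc
Tnp2, chr16:10788656-10788755, minus strand: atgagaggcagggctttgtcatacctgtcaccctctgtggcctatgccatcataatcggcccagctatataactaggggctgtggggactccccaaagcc
Actl7a, chr4:56743322-56743421, plus strand: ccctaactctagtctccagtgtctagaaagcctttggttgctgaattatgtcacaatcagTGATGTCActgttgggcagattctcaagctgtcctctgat
Spaca3 (second of 2 starts), chr11:80858289-80858388, plus strand: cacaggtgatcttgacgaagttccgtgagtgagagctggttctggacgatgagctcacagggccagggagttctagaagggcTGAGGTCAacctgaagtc
Gsg1 (first of 2 starts), chr6:135254337-135254436, minus strand: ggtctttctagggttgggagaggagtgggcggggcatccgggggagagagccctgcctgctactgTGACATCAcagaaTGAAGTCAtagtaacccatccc
Akap4 (first of 2 starts), chrX:7067415-7067514, plus strand: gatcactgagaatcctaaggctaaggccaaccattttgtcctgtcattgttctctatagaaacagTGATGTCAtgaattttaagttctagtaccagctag

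Counted back from the start, the match begins at base -64 in Prm1, -94 in Tnp1, -40 in Actl7a, -18 in Spaca3 and -35 in Akap4, and Gsg1 has one at -35 and another at -22. A match is a string of letters and shows no binding.

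The share of promoters with TGANGTCA differed along the ranking, over windows of 250 bases before to 50 after the start. Among all 27025 genes with such a window in the RefSeq table, 10% held it. In the brightest 10% of detected genes it was in 142 of 945 windows (15.0%) and in the dimmest 10% in 56 of 758 (7.39%). Genes not detected held it in 531 of 6674 (7.96%). The packaging list held it in 4 of 7 windows (Prm1, Tnp1, Hils1 and Prm3), the acrosome list in 10 of 22 and the flagellum list in 7 of 30. Outside the spermatid lists, the ribosomal protein and elongation factor list held it in 5 of 22 (22.7%), near the 23.3% of the flagellum list, and the Leydig list in 2 of 10. Among the other germ cell lists, the late spermatocyte list held it in 2 of 8 (25%). The list of germ cell energy isoforms held it in 3 of 11, and that of spermatid transcription and translation regulators in 3 of 15. No window of the meiotic list (17), the piRNA list (13) or the spermatogonia list (10) held it. The motif with 1 free base was searched only after the data were seen, including the result for the full palindrome TGACGTCA, which is 1 of its forms.

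The full palindrome was in 2 of 62 windows of the 100 brightest genes (3.23%), in 3.57% of all detected genes, in 1.74% of genes not detected and in 2.03% of all genes of the table. The TATA motif TATAAA, read forward only, was in 5 of 62 (8.06%) of the 100 brightest, 5.74% of detected genes, 13.3% of genes not detected and 9.77% of all genes. Only 62 of the 100 brightest genes have a window in the table, so their shares rest on few genes, which are not replicates.

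The germ cell forms of energy enzymes had the highest median of the 25 lists, at the 98.3rd percentile for 13 detected of 18 on the array, 10 of them in the brightest 10%. After Ldhc came Pgk2, the phosphoglycerate kinase of meiotic and later germ cells, with 13479 and 13750 (99.3rd percentile). Gykl1, a glycerol kinase-like gene, had 10795 and 9834, and Pgam2, a phosphoglycerate mutase, had 10649 and 9907. These are enzymes of or beside glycolysis, and the detected members of the list lay at or above the 80.8th percentile. The dimmest detected were Eno4, an enolase of the sperm tail, with 1039 and 974, and Hk1, a hexokinase with a sperm form, with 1006 and 853. Cox7b2, Slc25a31, Cyct, Pdha2 and Aldoart1, the germ cell forms of mitochondrial proteins and of an aldolase, were not detected. Oxct2a and Oxct2b are near-identical copies, and how their signals of 8255 to 9256 divide between them is uncertain.

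Genes of the sperm tail were detected in 36 of 41 cases, with a median percentile of 95.9, and 23 stood in the brightest 10%. Gsg1 is counted in this list, although it is described above only as a germ cell-specific membrane protein. Besides Gsg1, Odf1 and Rsph1, the brightest was Smcp, a protein of the mitochondrial capsule of the midpiece, with 20069 and 22306 and rank 31. At the lower end were Ropn1, a protein of the fibrous sheath, at 295 and 303 (58.2nd percentile), and Hydin, a protein of the central pair of the axoneme, at 137.5 and 114.6 (21.5th percentile). Not detected were Spa17, Ropn1l, Catsperb, Spag17 and Tssk1. Of the 36 detected members, 1 lay below the middle of the ranking.

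Acrosome and head genes were detected in 26 of 29 cases, with a median percentile of 91.3 and 15 in the brightest 10%. Actl7a, an actin-like protein of the head, had 8583 and 8771. Spink2, a protease inhibitor of the acrosome, had 8609 and 7186, and Dkkl1, a secreted acrosomal protein, had 7733 and 7421. None of the acrosome genes reached the highest 133 places, which make up 1.01% of the ranking. Acrv1, an acrosomal vesicle protein, had 5924 and 7322. The dimmest detected were Hyal5, a hyaluronidase of sperm, at 578 and 515, and Zp3r, a protein of the acrosomal matrix, at 208 and 190.4. Cylc1 and Cylc2, the cylicins of the sperm head, and Crisp2, a cysteine-rich secretory protein of the acrosome, were not detected with 1 probe each.

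Regulators of spermatid transcription and translation were detected in 19 of 22 cases, with a median percentile of 91.0. Ddx25, an RNA helicase of spermatids, led with 13516 and 12159 (99.2nd percentile). Ybx2, the germ cell Y-box protein that stores mRNA, had 9971 and 9993, Fhl5, a coactivator of CREM, had 7623 and 8223, and Rfx2, a transcription factor of spermatids, had 6327 and 6004. Crem itself stood lower, at 306 and 296 (58.5th percentile) on the brightest of its 4 detected probes of 6. The gene was named after its value was seen. Camk4, a calcium-dependent kinase, at 137.2 and 134.5, and Paip2, a regulator of poly(A)-binding protein, at 137.3 and 126.8, were the dimmest detected. Tbpl1, Cstf2t and Gtf2a1l, germ cell forms of basal transcription and cleavage factors, were not detected.

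Late spermatocyte genes were also high, with 12 of 16 detected and a median percentile of 94.8. Hspa2, the heat shock protein of meiotic cells, had 21987 and 20444 and rank 32. Adam3 had 11958 and 10905, Ybx2 the values above, and Clgn, an endoplasmic reticulum chaperone, 10857 and 9153. Boll, an RNA-binding protein, at 612 and 619, and Cdc25c, a phosphatase that opens division, at 209.6 and 255.9, closed the list. Mybl1, Adam2, Cks2 and Nek2 were not detected.

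The piRNA pathway, which silences transposons in germ cells with small RNAs, was detected in 16 of 19 genes at a median percentile of 77.1. Tdrd6, a tudor protein of the chromatoid body, had 10157 and 9508, and Piwil1, the PIWI protein of pachytene and later cells, had 6727 and 7277. Both genes are also in the late spermatocyte list. Tdrd7 had 5575 and 5616 and Gtsf1 had 1774 and 1869. Tdrd1, at 199.8 and 173.9, and Henmt1, the enzyme that methylates piRNA ends, at 183.2 and 181.1, were the dimmest detected, and Mybl1, Piwil4 and Mael were not detected.

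Genes of meiotic synapsis and recombination stood lower and spread further. Of 26 on the array 20 were detected, with a median percentile of 57.9, 4 in the brightest 10% and 8 below the middle. Psmc3ip, a partner of the recombinases, had 5168 and 5202 (96.3rd percentile), Stag3, the meiotic cohesin subunit, 4715 and 4402, Syce3, of the synaptonemal complex, 4459 and 4456, and Spo11, which makes the meiotic breaks, 2982 and 2975. At the other end were Prdm9, which places the breaks, at 105.0 and 127.6, and Mei1 at 101.3 and 113.0. The 2 mice were nearly equal for the brightest members and less so for Prdm9, whose SD was 0.46 on the log2 scale. Sycp1, a synaptonemal complex protein fixed as a spermatocyte marker, was at 120.4 and 125.6 (21.0th percentile) on 1 detected probe of 2. Sycp3 and Dmc1, the other such markers, were not detected with 1 probe each, nor were Mei4, Hormad1, Tex15 and Tex12. Ccna1, the cyclin of late spermatocytes, was at 2753 and 2113.

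Spermatogonial genes formed one of the dimmest lists. Of 22 on the array 12 were detected (54.5%), near the 55.5% of all genes with a RefSeq symbol. The median percentile was 28.2, with none in the brightest 10%. Uchl1, a ubiquitin hydrolase of spermatogonia, had 317 and 317, Kit, the receptor of differentiating spermatogonia, 281 and 308, Sohlh1, a transcription factor, 297 and 287, and Rhox13 214 and 215. Zbtb16, a factor of undifferentiated spermatogonia, was near the limit at 104.5 and 110.8. Even the brightest of these genes lay below the 60th percentile. The dimmest detected were Sohlh2 (100.1 and 114.3) and Upp1 (101.2 and 109.4). Of the fixed markers Gfra1, Stra8 and Dmrt1 were not detected, and neither were Bcl6b, Nanos2, Nanos3, Lin28a, Ret, Utf1 and Taf4b.

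General cell division genes were detected in 15 of 18 cases, with a median percentile of 57.8. Cdc20, an activator of anaphase, had 2778 and 2476, Aurka 1663 and 1532, and Plk1 1500 and 1319, all 3 of them mitotic and meiotic regulators. Mcm3, of the replication helicase, at 121.0 and 143.0, and Ccne1, the cyclin of entry into S phase, at 105.8 and 120.2, were the dimmest. Pcna, the replication clamp, Bub1 and Ccnb2 were not detected.

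H3f3b, the gene deleted in the other mice of the study, stood in the upper part of the ranking in the WT testis on the brighter of its 2 probes. It had deposited signals of 3811 and 3535, a level of 11.81 ± 0.04 (SD, n = 2), rank 736 and the 94.4th percentile. Its second probe, deposited under a RIKEN clone name, was at the detection limit with 100.1 and 116.5 (level 4.95), so the rank rests on 1 probe. H3f3a, which encodes the same H3.3 protein, had 4821 and 4769 and the 96.0th percentile on its brightest probe. Its other detected probes read 2048 and 2264, and 346.5 and 286.5. H2az1, an H2A variant, had 3668 and 4110, and Macroh2a1, which encodes macroH2A, 1215 and 1222. The replacement histones as a list had a median percentile of 84.8, with 7 of 8 detected. With the dimmest detected probe of each gene the median was 74.6. H2ax, the variant phosphorylated at DNA breaks, had 766 and 743, Cenpa, the centromeric H3 variant, had 387 and 420, and H1f0 was not detected. H3.3 genes have many pseudogene copies, so the signals of H3f3a and H3f3b are uncertain to that extent.

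Sertoli cell genes covered the full scale, with 26 of 33 detected, a median percentile of 67.6, 6 in the brightest 10% and 9 below the middle. Clu, the secreted chaperone clusterin, had 8569 and 8577 (98.3rd percentile). Cst9, a cystatin, had 6767 and 7233, Aard 6162 and 6547, and Cldn11, a claudin of the blood-testis barrier, 5446 and 4927. Of the other fixed markers Sox9, Wt1, Rhox5 and Inha were mid to high: Sox9, the transcription factor of Sertoli cells, stood at the 78.7th percentile and Inha, the inhibin alpha subunit, at the 70.7th. Gdnf, the growth factor for spermatogonial stem cells, at 100.2 and 106.1, and Tesc, at 99.6 and 105.6, were among the last of the ranking. Gata1, Ctsl, Kitl, Amh, Gata4, Nr0b1 and Krt18 were not detected. Amh, the anti-Müllerian hormone, and Gata4, a factor of gonadal somatic cells, are fixed markers with 1 probe each.

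Leydig cell genes split into 2 very bright members and a long tail. Cyp17a1, an enzyme of androgen synthesis, had 5231 and 5415 (96.5th percentile), and Insl3, a peptide hormone of Leydig cells, had 5147 and 5403 (96.4th percentile). Cyb5a, the cytochrome b5 that aids the CYP17A1 reaction, had 1131 and 1027, and Agt, angiotensinogen, 641 and 689. The other 12 detected members lay below these, and the median percentile was 54.2 for 16 detected of 23. Cyp11a1, which starts steroid synthesis from cholesterol, had 297 and 289, and Star, which carries cholesterol into mitochondria, 120.4 and 124.4 (20.6th percentile). Hsd11b1 at 113.3 and 121.5 and Inmt at 103.6 and 107.7 were the dimmest. Hsd3b1 and Hsd3b6, the fixed markers for the next step of synthesis, were not detected with 1 probe each, nor were Nr5a1, Nr2f2, Akr1b7, Sult1e1 and Fdx1. A probe deposited as Hsd3b2, a gene of the same family, was bright, at 2916 in the litter 1 mouse and 1296 in the litter 2 mouse. Hsd3b2 is outside the list and was named after its values were seen. The median of the list rests on the probe read: with the dimmest detected probe of each gene in place of the brightest, it moved by 17.4 percentile points.

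Peritubular and smooth muscle genes were detected in 8 of 12 cases, with a median percentile of 57.7. Actg2, a smooth muscle actin, had 6574 and 6064, Acta2, the alpha smooth muscle actin, 3049 and 2930, Mylk, the myosin light chain kinase, 1243 and 1356, and Myl9 574 and 503. Which cells of the testis gave the Actg2 signal was not tested. Smtn and Des, at 139.9 and 153.8 and at 135.8 and 141.5, were the dimmest detected. Myh11, the smooth muscle myosin heavy chain, was at the 42.1st percentile. Cald1, Tagln, Lmod1 and Cnn1 were not detected. The value of Acta2 rests on 1 probe deposited under a RIKEN clone name. Of the 4 probes deposited as Acta2, 3 read between 293 and 558 and 1 was not detected.

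Genes of the other interstitial cells were mostly mid-range or dim. Fibroblast and matrix genes had a median percentile of 49.7 (13 of 16 detected), led by Sparc, a matrix glycoprotein, with 2423 and 1988, and Dcn, decorin, with 1274 and 1296. Fn1, at 101.4 and 107.6, was the dimmest, and Col1a2, Col3a1 and Dpt were not detected. Macrophage and leukocyte genes had a median of 44.8 (17 of 23), or 29.7 with the dimmest detected probe of each gene. Aif1, a calcium-binding protein of macrophages, stood apart at 4388 and 4225 (95.4th percentile), with the next, Lyz1, at 923 and 771, and the fixed markers Csf1r and Adgre1 at the 6.01st and 6.59th percentiles. Which cells of the testis gave the Aif1 signal was not tested. Lyz1 and Lyz2 are close copies, so their split is uncertain. H2-Aa, Cd163, Itgam, Ptprc, Cd79a and Ms4a1 were not detected.

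Endothelial genes had a median percentile of 20.0, although 12 of 14 were detected. Egfl7, a secreted factor of vessels, had 306 and 294, Vwf 208 and 231, and Cldn5, a claudin of tight junctions, 168 and 202. Cdh5, the endothelial cadherin, at 101.2 and 116.1, and Kdr, a receptor of vascular growth factor, at 105.2 and 106.1, were near the limit, and Pecam1 and Tie1 were not detected. This list combined a high detected share with low levels. Globin transcripts were detected as well. Hbb-b1, a beta globin, had 916 and 678 and Hba-a1, an alpha globin, 636 and 527, while Slc4a1, the anion exchanger of red cells, was not detected.

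Genes of tissues that adjoin the testis were also read. Of 14 epididymis genes 5 were detected (35.7%), with a median percentile of 51.2, and the fixed markers Lcn5, Crisp1 and Gpx5 were not among them. Of all genes with a RefSeq symbol 55.5% were detected. Wfdc10 was the brightest, with 559 and 734. Of 8 adipose genes 5 were detected (62.5%), near that share. They were led by Adipoq, the hormone adiponectin, at 583 and 578 (73.2nd percentile), while Fabp4, Cidec and Plin1 were not detected. The median percentile of the 5 was 9.47, but 56.6 at a detection p under 0.01, 17.5 without the litter 2 mouse and 13.8 without the litter 1 mouse. Cfd, adipsin, was at 182.8 in the litter 2 mouse and 308 in the litter 1 mouse. The part of fat, epididymis or blood in any other value was not tested.

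**Figure D2:**
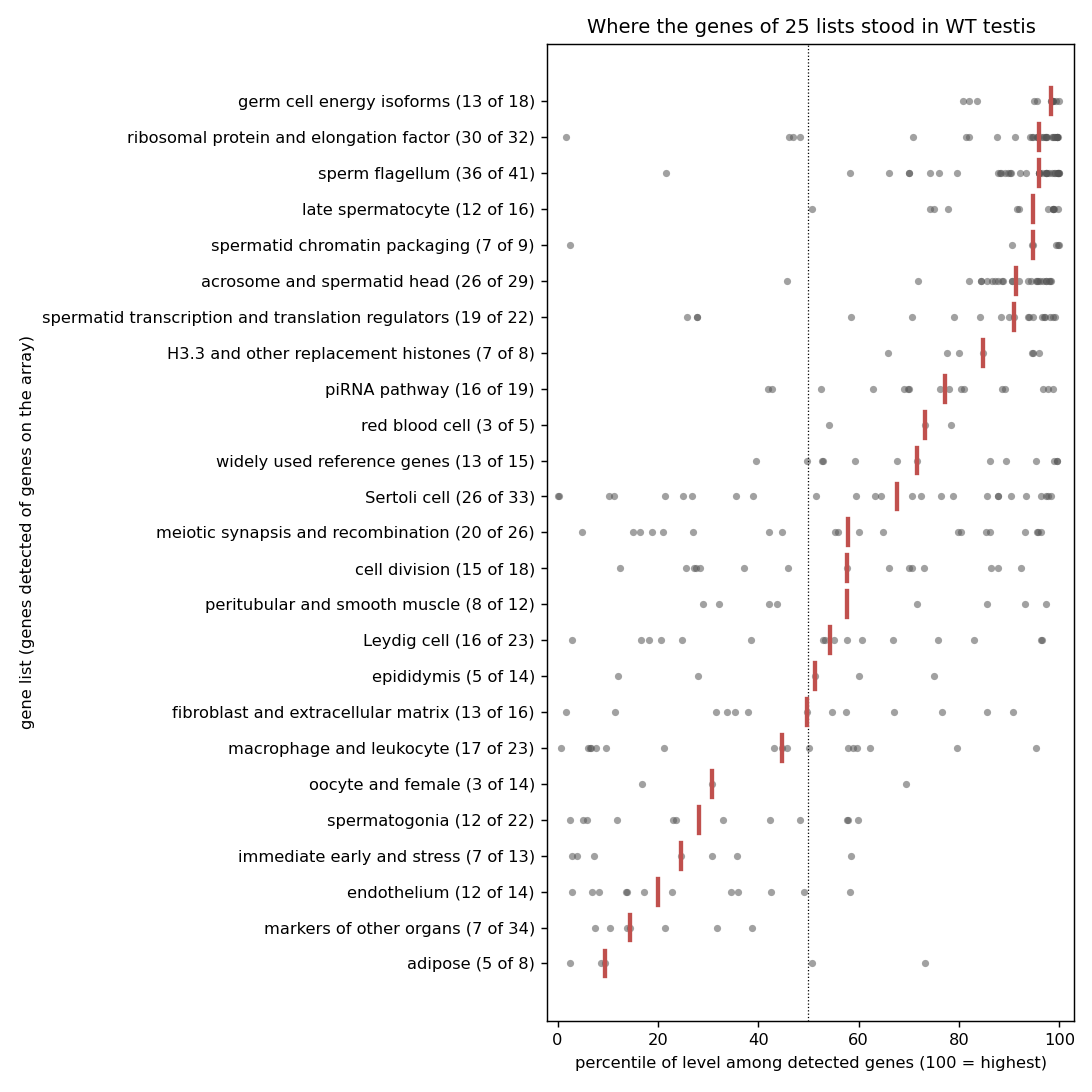
Percentile of level (horizontal axis, 100 is the highest among 13224 detected genes) of each detected gene of 25 lists, with a point per gene, a bar at the list's median, and the genes detected of those on the array beside each name. Medians lie between 98.3 for the germ cell energy isoforms and 9.47 for the 5 adipose genes, a value that is 56.6 at a detection p under 0.01, and the Sertoli list spreads over the whole axis.

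Genes often used as references were not alike. Ppia, a cyclophilin, had 14731 and 16443, Actb, beta actin, 10511 and 10976, and Gapdh 4087 and 4385. Tfrc and Pgk1 were the dimmest detected, at 222 and 224 and at 173.8 and 169.6, and Actg1 and Sdha were not detected. Of 15 on the array 13 were detected, and those named here ran between the 39.6th and the 99.5th percentile. Ribosomal proteins and elongation factors were higher, with 30 of 32 detected and a median percentile of 96.0. Eef1a1, the elongation factor, had 20135 and 19904, and Rplp1 16089 and 17724. Rpsa at 100.9 and 108.4 was an exception, and Rps18 and Rpl6 were not detected.

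Immediate early and stress genes, which rise within minutes of handling or injury, were low in both mice. Of 13 on the array 7 were detected (53.8%), near the 55.5% of all genes with a RefSeq symbol, with a median percentile of 24.6. Dusp1, a phosphatase, had 308 and 297, Egr1 167.1 and 150.6, and Zfp36 137.3 and 148.0. Jun, Fos, Ier2, Btg2, Atf3 and Hspa1b were not detected.

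Genes typical of other organs were the list with the smallest detected share. Of 34 on the array 7 were detected (20.6%), none in the brightest 10% and none above the middle. Tg, thyroglobulin, had 162.3 and 176.0, and Apoa2, an apolipoprotein of liver, 119.1 and 127.9. The other 27, among them Alb of liver, Ins1 and Ins2 of pancreas, Gfap of brain and Ckm of muscle, were not detected. Oocyte and female genes were detected in 3 of 14 cases (21.4%). Gdf9, a growth factor best known from oocytes, was clearly above background, at 501 and 460 (69.4th percentile), Nlrp5 had 133.4 and 152.7, and Figla 118.7 and 116.7. Zp3, a zona pellucida protein, and Xist, the RNA of the inactive X chromosome, were not detected, with 4 probes in the case of Xist.

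Gene families gave the same range at a larger scale. Sensory receptors were almost undetected: 19 of 1085 olfactory receptors (1.75%), 4 of 148 vomeronasal receptors (2.70%) and 0 of 32 bitter taste receptors were called, against 44.8% of all names. Among names with a RefSeq symbol the detected share was 55.5%. Of the 19 olfactory receptors 18 lay below the middle of the ranking, and the brightest was Olfr303. Keratin-associated proteins (3 of 39), keratins (6 of 49), type I interferons (2 of 14) and Hox genes (8 of 39) were also rare. Cytochromes P450 were detected in 25 of 79 cases, with Cyp17a1 the brightest, and beta-defensins in 10 of 37, where Defb19 led and 3 were in the brightest 10%.

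At the other end, the 3 tektins of the sperm tail named in the files, 47 of 49 large-subunit ribosomal proteins, 33 of 35 subunits of NADH dehydrogenase and 30 of 32 small-subunit ribosomal proteins were detected. The CatSper family of sperm calcium channels was detected in 8 of 9 cases, and the Spata genes, named for spermatogenesis, in 24 of 28. Axonemal dyneins were detected in 6 of 11 cases (54.5%), near the 55.5% of all genes with a RefSeq symbol. None of the 6 detected dyneins lay below the middle. Zinc finger Zfp genes (181 of 317, 57.1%) and solute carriers (182 of 359, 50.7%) were close to the 55.5% of genes with a RefSeq symbol, with median percentiles of 35.6 and 41.8.

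**Figure D3:**
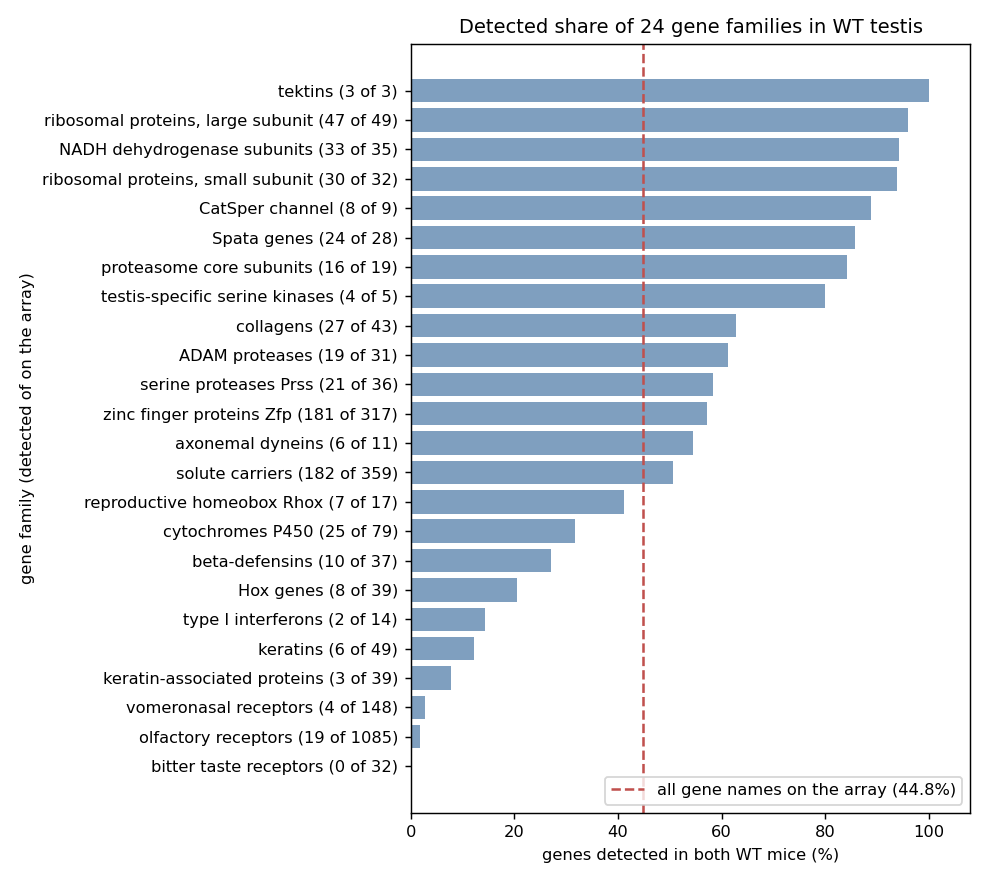
Share of genes detected in both WT mice (%, horizontal axis) for 24 families chosen by gene name, with the detected and total numbers beside each name and a dashed line at 44.8% for all names on the array. Tektins, ribosomal proteins and NADH dehydrogenase subunits lie above 90% and sensory receptors below 3%. The share among names with a RefSeq symbol was higher than the dashed line, at 55.5%, and is not drawn.

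The middle of the ranking held genes of varied function. The 6 genes nearest the median were Abhd12, a lysophospholipase, Alg2, a mannosyltransferase of protein glycosylation, Rapsn, which clusters receptors at muscle synapses, Fadd, an adaptor of cell death receptors, BC004022 and LOC380718. Their signals were between 213 and 239.3. Alg2 had 239 in the litter 2 mouse and 213 in the litter 1 mouse, and ranked 6362 and 6859 in them, so a small difference in signal went with a large one in rank. The 6 dimmest detected genes were Duxbl1, Padi1, Rubcnl, LOC239618, Tatdn3 and Phf8. All had signals between 99.1 and 105.9, and 3 of them, Duxbl1, Rubcnl and Phf8, had further probes that were not detected.

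Pairs of a testis copy and its widespread relative did not all go the same way, with the reservation that different probes are compared. Where the widespread gene is X-linked, and so silenced in meiotic spermatocytes, the testis copy had the higher level in 6 of 11 pairs on the array. Pgk2 had 13479 and 13750, against 173.8 and 169.6 for Pgk1. Prps1l1, a phosphoribosyl pyrophosphate synthetase, had 9305 and 8588, against 233 and 201 for Prps1. Rbmxl2 had 1201 and 1216, against 108.1 and 116.0 for Rbmx, an RNA-binding protein. Gk2, Cetn1 and Ubl4b were the other copies with the higher level, and Gk and Cetn2 were not detected. Each pair sets different probes side by side, and Cetn1 (5.54) and Cetn2 (4.26) lay closer on the log2 scale than the median range of 1.45 between probes of 1 gene.

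The reverse was seen for Rpl39l, at 111.5 and 112.0 against 1915 and 1662 for Rpl39, a ribosomal protein, and for G6pd2, at 101.4 and 116.7 against 128.4 and 125.9 for G6pdx. Pdha2 and Cstf2t were not detected while Pdha1 and Cstf2 were, and of Utp14b and Utp14a neither was. Where the relative is autosomal, the testis copy was higher in 8 of 11 pairs. Ldhc had 44934 and 48657, against 10926 and 10770 for Ldha. Hspa2 had 21987 and 20444, against 3187 and 2478 for Hspa8, and Calr3, a chaperone of the sperm endoplasmic reticulum, 5776 and 5809, against 625 and 664 for Calr. Clgn was bright while Canx was not detected with its 1 probe. Gapdhs, Papolb, Atp1a4 and Psma8 were also above their relatives, Ybx2 (9971 and 9993) was below Ybx1 (27672 and 26791), Cyct was not detected while Cycs was, and neither Slc25a31 nor Slc25a4 was detected. Gapdhs (13.25) and Gapdh (12.01) also lay closer than the median range of 1.45 between probes of 1 gene. So did 2 pairs with the testis copy lower, Ybx2 (13.27) and Ybx1 (14.71), and G6pd2 (4.99) and G6pdx (5.64).

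**Figure D4:**
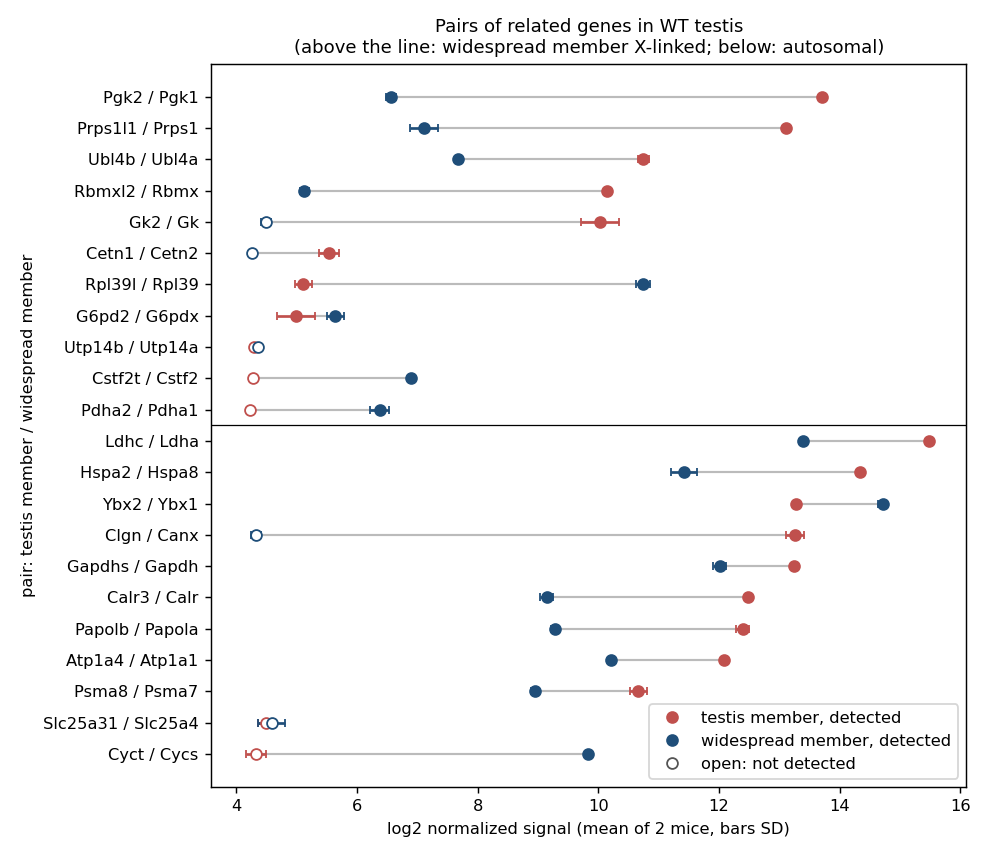
Log2 normalized signal (horizontal axis, mean of 2 mice, bars SD) of 22 pairs of a testis copy (red) and its widespread relative (blue), with open points for genes not detected and a line between pairs with an X-linked relative (above) and an autosomal one (below). The testis copy lies to the right in 6 of the 11 upper and 8 of the 11 lower pairs.

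The 2 mice gave nearly the same ranking. Over the 18486 detected probes, levels of the litter 2 and litter 1 mice correlated across probes with Pearson's r of 0.993 and Spearman's rho of 0.986, which describes probes that share an array and not independent samples. The SD of the difference, litter 2 minus litter 1, was 0.25 on the log2 scale (0.158 without background correction), the median absolute difference was 0.153, and 95% of probes differed by less than 0.494. The SD was 0.170 in the brightest 10% and 0.311 in the second dimmest, so the upper ranks were the more repeatable. At least a 2-fold difference was seen for 20 probes (0.108%), of which 19 were lower in the litter 2 mouse.

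Of the 8 genes with the largest difference, 7 had deposited names of the LOC385 and LOC386 series, and all 8 were lower in the litter 2 mouse. LOC386144 had 128.6 in the litter 2 mouse and 503 in the litter 1 mouse, a difference of -3.08 on the log2 scale. LOC386360 had 369 in the litter 2 mouse and 1514 in the litter 1 mouse. The others of this series were LOC385959, LOC386199, LOC386256, LOC386268 and LOC386101, with differences between -2.21 and -1.77. The 8th was Pigt, of the machinery that attaches proteins to lipid anchors, with 2004 in the litter 2 mouse and 5233 in the litter 1 mouse. Over the 25 lists, medians of the difference lay between -0.33 for the red blood cell genes, where 3 of 3 were lower in the litter 2 mouse, and 0.23 for the epididymis genes, where 4 of 5 were higher. Of all 13224 detected genes, 6813 were higher and 6370 lower in the litter 2 mouse. With 1 mouse per litter no test was made.

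**Figure D5:**
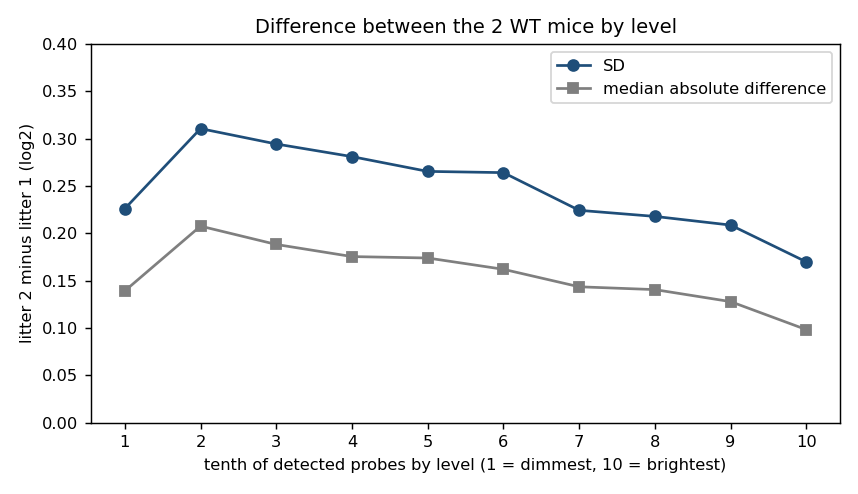
SD and median absolute value of the difference between the 2 WT mice (litter 2 minus litter 1, log2, vertical axis) in 10 groups of detected probes from the dimmest (1) to the brightest (10). The SD is highest in the second group, at 0.311, and lowest in the brightest, at 0.170.

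Probes of the same gene differed more than mice did. Over 3772 genes with more than 1 detected probe, the median range between the brightest and the dimmest was 1.45 on the log2 scale (0.899 without background correction), and in 61.7% it was at least 1 and in 38.5% at least 2. In ranks this was a median of 21.2 percentile points among detected probes. The median range between probes was larger than the difference between the mice for 95% of probes (0.494).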

How the data were processed

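Total RNA of 1 testis per mouse was measured on Illumina bead arrays. Per the file headers, the deposited values per probe are an average signal, an intensity on a linear scale. Beside it stands a deposited detection p-value. Per the submitters' processing notes it came from GenomeStudio, version not stated. The series' value table, the deposited intensity scaled to 1 mean per array, served as an alternative. The 2 WT arrays were background-corrected and quantile-normalized with neqc of limma 3.58.1 (offset 16, R 4.3.3), with control mean and spread inferred from detection p-values. Ranks were computed in Python 3.11.15 and tested on simulated data. There the brightest probe of a gene was given its true level, so the choice of that probe was not itself tested. No test between groups was run. The precision is limited by the 2 arrays.

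Of 31508 deposited symbols, 13424 were current in a RefSeq table (GRCm38.p6), 8145 were updated, 113 matched several genes, 9812 matched none and 14 had become dates (27 probes, unnamed). Promoter sequences are RefSeq's. Named genes were H3f3b, the 25 brightest, 6 nearest the median, 6 dimmest, 8 with the largest mouse difference, 4 probes on each side of the threshold, all pairs, and up to 4 brightest, 2 dimmest and the undetected members of each list. Markers fixed as such were also named. Members and lists were chosen with earlier results of these data known, and lists share some genes. A few named genes are not reported here.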

Additional observations from a re-analysis of the deposited data

How the results depend on the processing

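The detected probes numbered 15922 at a detection p under 0.01 and 21511 where 1 array sufficed, against 18486, and between 19809 and 20188 when either mouse was left out. The 100 brightest genes stayed the same 100 with no background correction, with normexp at offset 50, with all 6 arrays normalized together, with the series' value table and with no detection filter, and 94 to 96 remained with 1 mouse left out. Between 348 and 360 listed genes were detected with 1 mouse left out and 314 at a detection p under 0.01, against 345. The SD between mice was 0.158 without background correction, 0.173 with normexp at offset 50 and 0.240 at a detection p under 0.01, against 0.25. The range between probes of a gene was 0.899 without background correction and 1.37 at the stricter p, against 1.45. TGACGTCA was in 0% of the 50 brightest genes with a promoter, against 3.23% of the 100. Medians of lists moved most for adipose (47.1 percentile points at a detection p under 0.01), Leydig (17.4 with the dimmest probe, 12.4 with the mean of probes) and epididymis (16.1 without the litter 2 mouse). With the dimmest probe, the macrophage and leukocyte, epididymis and replacement histone lists also moved by more than 10 points. Why these values moved was not tested. No paired analysis was possible because the results come from no test between groups.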

Other observations

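The probes with deposited names of the LOC385 and LOC386 series varied more between mice than other probes, which was noticed after their values were seen. Of 102 detected, 63 were lower and 39 higher in the litter 2 mouse, with a median difference of -0.09 and an SD of 0.63 on the log2 scale, and 9 differed at least 2-fold. Over all 1002 detected probes with a LOC name the SD was 0.32. Of all 13224 detected genes, 6370 were lower and 6813 higher in the litter 2 mouse. The other probes past 2-fold included Hsd3b2, a steroid dehydrogenase (1296 in the litter 2 mouse and 2916 in the litter 1 mouse), Cfd (182.8 and 308), a probe deposited for 18S ribosomal RNA (10758 and 22149), and Ugt1a6a, the 1 probe that was higher in the litter 2 mouse (317 and 192.2).

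Limits are few mice, 1 tissue sample per mouse, a ranking by signal rather than by copies, names from an old annotation, and no probe sequences or protein table with which to compare probe match or protein makeup.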
